A study of Mus musculus with 18 samples.

Results

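The claudins described here are 10 genes, Cldn1, Cldn3, Cldn4, Cldn5, Cldn7, Cldn8, Cldn10, Cldn12, Cldn18 and Cldn23, chosen as a list of symbols and matched to the Entrez identifiers of the count files. All 10 were found among the 27179 genes counted, and all 10 were among the 17989 genes that passed the filter on low counts (a CPM above 0.2 in at least 3 of 18 libraries). RNA was sequenced from 6 populations sorted from untreated C57BL/6 mice, given in the methods as males of 8 to 12 weeks, with 3 libraries for each population. Tracheas of mice 1 to 3 gave NGFR-positive basal stem cells (BSCs) and NGFR-negative non-basal cells. Lungs of mice 4 to 6 gave EpCAM-positive CD104-positive airway cells with high CD24 (CD24hi, enriched for ciliated cells) or low CD24 (CD24lo, enriched for club cells), EpCAM-positive CD104-low alveolar cells, and EpCAM-negative cells. Organ, animal and sequencing depth therefore cannot be told apart between a tracheal and a lung population. Tracheal libraries held 29317215 to 32993621 counted reads and lung libraries 9811503 to 13208897, so a rare claudin transcript was measured with less counting error in trachea.

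Claudins are small membrane proteins that polymerise into the strands of tight junctions, the belts that seal the space between neighbouring epithelial or endothelial cells. Some members mainly tighten the barrier and others form pores or channels for small ions, so the mixture a cell makes helps to set what can pass between cells. In the lung this seal keeps the airspaces from flooding, and in the airways it separates the mucus and liquid layer from the tissue beneath.

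The sorted populations carried the markers of their labels. The summed level of 8 basal markers was 4272 to 4643 RPKM (reads scaled to gene length and to library size with TMM factors) in BSCs and 1186 to 1562 RPKM in non-basal cells. Krt15 made up most of the non-basal sum, with a mean of 1153 RPKM, 47.8% of its BSC mean. The other basal markers were there at 5.41% (Krt14) to 22.8% (Dst) of their BSC means. The 10 ciliated markers summed to 2577 to 2914 RPKM in CD24hi cells and 355 to 603 RPKM in CD24lo cells, and 7 club markers to 502135 to 706136 RPKM in CD24lo cells and 74995 to 98489.6 RPKM in CD24hi cells. The 8 alveolar type 2 (AT2) markers summed to 177949 to 199084 RPKM in alveolar cells, and 9 fibroblast and mural markers to 7735 to 8075 RPKM in EpCAM-negative cells. The 8 immune markers summed to 36546 to 44278 RPKM in alveolar cells, almost wholly from Lyz2, which AT2 cells also make, while the pan-leukocyte gene Ptprc was at 0.854 RPKM there and at most 4.98 RPKM as a population mean. In trachea the immune sum was 6405 to 9062 RPKM in non-basal cells and 313 to 611 RPKM in BSCs. The 6 mesothelial markers reached 2424 to 2678 RPKM in non-basal cells, from Msln and Krt19, with the defining gene Wt1 at 0.0257 RPKM. Every lung population also held reads of endothelial genes, which bears on Cldn5 and is given with it. Since each library is a bulk of sorted cells, fewer cells making a claudin and less of its RNA in each cell cannot be told apart.

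**Figure D1:**
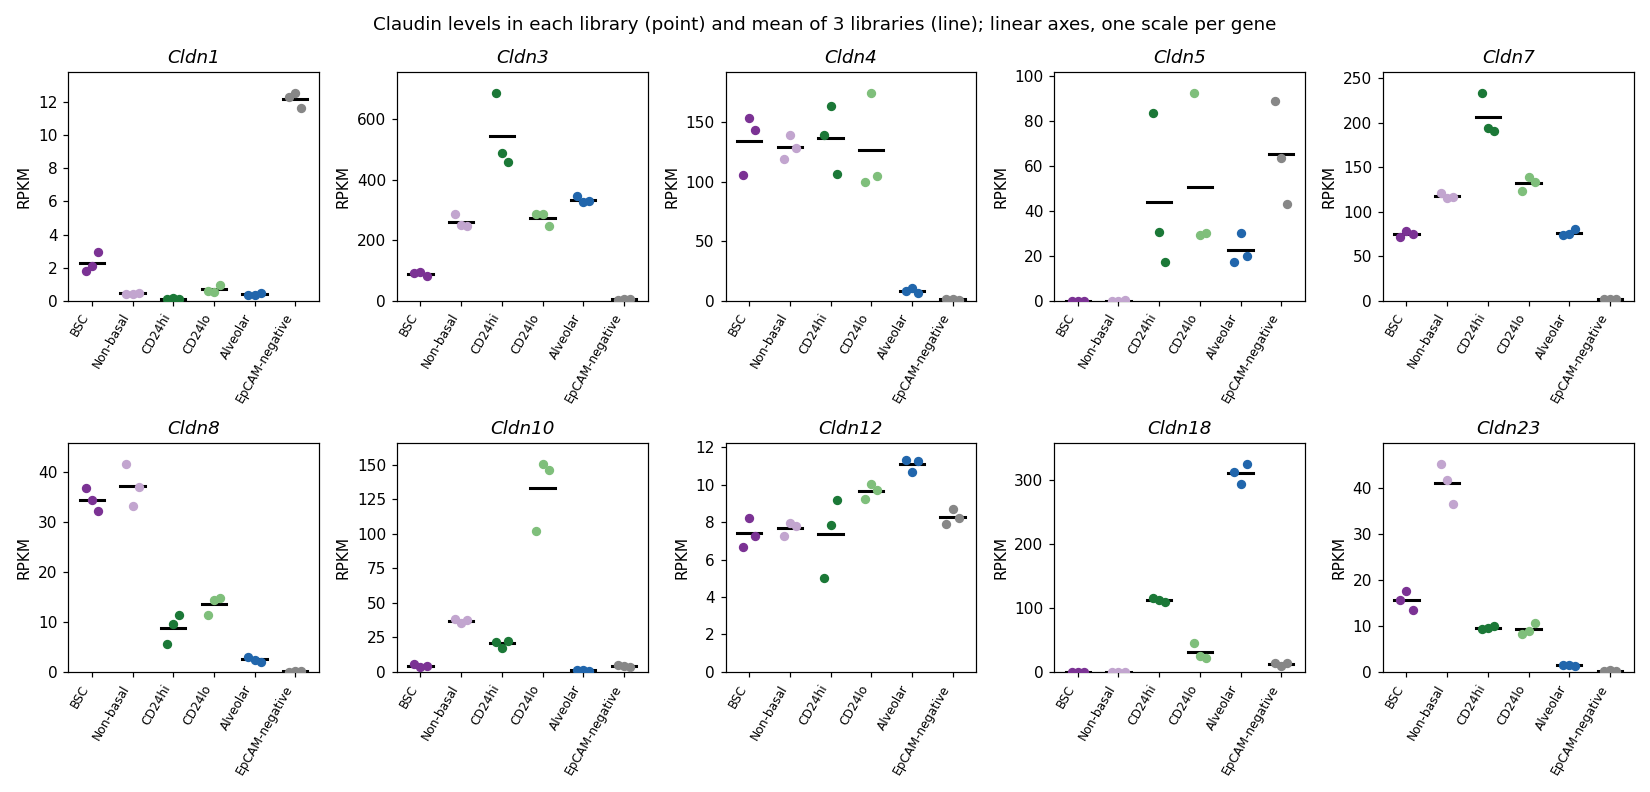
Levels of the 10 claudins in RPKM (vertical axis, linear, from 0, with a scale of its own for each gene) in the 18 libraries, with a point for each library and a line at the mean of each population. Cldn18 has its highest points in alveolar cells (294 to 324) and none above 0.0113 in trachea, Cldn10 has its highest points in CD24lo cells (102 to 150.3), and the EpCAM-negative points reach at most 5.11 for every gene except Cldn1, Cldn5, Cldn12 and Cldn18.

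Cldn3 and Cldn4 encode barrier claudins of many epithelia and are neighbours on chromosome 5, Cldn4 at chr5:134945123-134946934 on the minus strand, GRCm38 and Cldn3 at chr5:134986214-134987476 on the plus strand, with 39279 bases between them. Both have a single exon in GENCODE. Cldn3 was the most abundant claudin in 4 of the 6 populations. Its level was 91.4, 96.0 and 80.9 RPKM in the 3 BSC libraries, 287, 249.9 and 246 RPKM in non-basal cells. CD24lo cells held 286, 287 and 247 RPKM. It was 347, 326 and 328 RPKM in alveolar cells, 686, 489 and 459 RPKM in CD24hi cells and 2.61, 4.38 and 4.70 RPKM in EpCAM-negative cells. The CD24hi libraries were the highest and the EpCAM-negative ones the lowest, with no overlap with any other population.

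Cldn3 was higher in CD24hi than in CD24lo cells (log2 fold change 0.99 ± 0.16, adjusted p = 3.5e-05, edgeR's quasi-likelihood test with Benjamini-Hochberg adjustment over all genes tested, as for every adjusted p below) and lower in BSCs than in non-basal cells (log2 fold change -1.54 ± 0.16, adjusted p = 3.6e-07). Alveolar cells lay below CD24hi cells (log2 fold change -0.71 ± 0.16, adjusted p = 0.00076). Alveolar, CD24lo and non-basal cells, which follow in that order, did not pass the test against their neighbours (log2 fold change 0.29 ± 0.16, adjusted p = 0.14 for the first pair, and log2 fold change -0.067 ± 0.16, adjusted p = 0.74 for non-basal against CD24lo cells). Alveolar minus CD24lo did pass in 3 alternatives, a fit of only these 6 libraries (0.27), a correction for gene length (0.39) and the fit without both airway libraries of mouse 4 (0.32).

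Cldn4 had another profile. It stood at 106, 153 and 144 RPKM in BSCs, 119, 139.5 and 128 RPKM in non-basal cells, 139, 164 and 106 RPKM in CD24hi cells and 99.4, 174 and 105 RPKM in CD24lo cells, and these 4 airway populations overlapped. In alveolar cells it was 8.17, 10.4 and 6.02 RPKM and in EpCAM-negative cells 0.975, 1.78 and 0.714 RPKM, below every airway library. No pair of the airway populations passed the test, with log2 differences of 0.11 (SE 0.24) for CD24hi minus CD24lo and 0.059 (SE 0.23) for BSC minus non-basal, and an adjusted p of at least 0.72 over the 6 pairs. Alveolar cells were lower than CD24lo cells (log2 fold change -3.94 ± 0.27, adjusted p = 1.8e-09), a mean 15.4-fold lower in RPKM. The ratio of Cldn3 to Cldn4 in RPKM was 0.685 ± 0.158 (SD, n = 3) in BSCs, 4.08 ± 0.997 in CD24hi cells and 42.8 ± 11.5 in alveolar cells. BSCs were the only population of the 6 in which Cldn4 exceeded Cldn3, which it did in each of the 3 libraries.

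The windows from 250 bases before to 50 bases after the start of each gene are shown because these neighbours differed in profile (RefSeq windows, GRCm38.p6, printed 5′ to 3′ on the gene's strand). Capitals mark matches, on either strand, to the Sp1 box GGGCGG or the AP-1 motif TGANTCA.
Cldn3, chr5:134985964-134986263: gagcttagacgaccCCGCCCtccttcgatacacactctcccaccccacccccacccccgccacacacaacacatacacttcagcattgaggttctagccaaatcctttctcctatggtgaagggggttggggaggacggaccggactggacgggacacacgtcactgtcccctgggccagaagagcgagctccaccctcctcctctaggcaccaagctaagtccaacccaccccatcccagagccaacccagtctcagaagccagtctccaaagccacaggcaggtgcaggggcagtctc
Cldn4, chr5:134946885-134947184: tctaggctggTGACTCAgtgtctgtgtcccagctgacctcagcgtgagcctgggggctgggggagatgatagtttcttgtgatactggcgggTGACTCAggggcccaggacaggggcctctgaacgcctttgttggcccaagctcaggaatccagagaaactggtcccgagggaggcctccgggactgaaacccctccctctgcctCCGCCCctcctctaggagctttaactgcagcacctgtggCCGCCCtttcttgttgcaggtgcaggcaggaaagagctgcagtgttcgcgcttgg
The Cldn4 window holds 2 AP-1 matches, which begin 240 and 158 bases before the start, and the Cldn3 window holds none. Both hold Sp1 boxes. Of 32851 windows of this length over all genes, 7.81% hold TGANTCA and 35.7% hold GGGCGG. A match is a description of the letters and not evidence of binding.

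Cldn7, an epithelial claudin found along the side membranes as well as in junctions, is at chr11:69964779-69967886 on the plus strand, GRCm38. It was detected at 72.0, 78.2 and 74.8 RPKM in BSCs, 121, 115 and 117 RPKM in non-basal cells, 234, 195 and 191 RPKM in CD24hi cells and 124, 139.5 and 134 RPKM in CD24lo cells. Alveolar libraries held 74.2, 74.7 and 80.6 RPKM and EpCAM-negative libraries 1.88, 1.88 and 2.04 RPKM. As for Cldn3, the CD24hi libraries were highest, and CD24hi exceeded CD24lo cells (log2 fold change 0.64 ± 0.086, adjusted p = 5.1e-06). BSCs were lower than non-basal cells (log2 fold change -0.65 ± 0.085, adjusted p = 5.9e-06). BSC and alveolar levels overlapped and did not pass the test (log2 fold change -0.029 ± 0.086, adjusted p = 0.78). When libraries were scaled by their size without TMM factors, this last value was 0.38 and passed, while the median of all genes moved from -0.093 to 0.29.

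Epcam encodes the surface protein used for the lung sort, a known binding partner of claudin-7. Epcam was at 1.76 ± 0.110 RPKM (SD, n = 3) in EpCAM-negative cells, between 86.4 ± 3.08 RPKM in CD24lo and 121 ± 8.32 RPKM in CD24hi cells, and at 101 ± 5.12 RPKM in BSCs. Since cells were sorted on EpCAM, the low Epcam of the EpCAM-negative population follows from the gate and is not a finding.

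Cldn8 (chr16:88560826-88563183 on the minus strand, GRCm38), Cldn23 (chr8:35824709-35826559 on the minus strand) and Cldn1 (chr16:26356645-26371839 on the minus strand) were the claudins with higher levels in one or both tracheal populations than in the 3 EpCAM-positive lung populations. Cldn8, which in kidney works with Cldn4 to hold back cations and pass chloride, was at 36.7, 34.4 and 32.2 RPKM in BSCs and 41.5, 33.1 and 37.0 RPKM in non-basal cells. It was at 11.4, 14.4 and 14.8 RPKM in CD24lo, 5.60, 9.55 and 11.3 RPKM in CD24hi, 2.99, 2.42 and 2.05 RPKM in alveolar and 0.0681, 0.175 and 0.194 RPKM in EpCAM-negative cells. All tracheal libraries lay above all lung libraries, and the tracheal populations overlapped. Non-basal cells exceeded CD24lo cells (log2 fold change 1.46 ± 0.19, adjusted p = 4.6e-06) and BSCs exceeded alveolar cells (log2 fold change 3.78 ± 0.22, adjusted p = 5.8e-11). CD24hi cells were lower than CD24lo cells (log2 fold change -0.62 ± 0.19, adjusted p = 0.012), a call that was lost when libraries were scaled by size without TMM factors and in a fit of only these 6 libraries.

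Cldn23, a less studied epithelial claudin, had 45.1, 41.6 and 36.5 RPKM in non-basal cells, 15.6, 17.7 and 13.5 RPKM in BSCs, 9.34, 9.61 and 9.90 RPKM in CD24hi and 8.26, 8.81 and 10.6 RPKM in CD24lo cells. It stood at 1.48, 1.54 and 1.20 RPKM in alveolar and 0.260, 0.357 and 0.247 RPKM in EpCAM-negative cells. Each step in that order passed the test except CD24hi against CD24lo (log2 fold change 0.065 ± 0.13, adjusted p = 0.69). Non-basal cells exceeded BSCs (log2 fold change -1.40 ± 0.11, adjusted p = 2.0e-08 for BSC minus non-basal) and CD24lo cells (log2 fold change 2.16 ± 0.12, adjusted p = 2.6e-10).

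Cldn1, needed for the water barrier of the epidermis, was the only listed claudin that was higher in BSCs than in non-basal cells (log2 fold change 2.36 ± 0.20, adjusted p = 3.3e-08). BSC libraries held 1.76, 2.08 and 2.94 RPKM and non-basal libraries 0.420, 0.401 and 0.492 RPKM. Levels were 0.596, 0.515 and 0.923 RPKM in CD24lo, 0.326, 0.369 and 0.436 RPKM in alveolar and 0.0698, 0.137 and 0.121 RPKM in CD24hi cells. The highest level of the 6 populations was in EpCAM-negative cells, at 12.3, 12.6 and 11.6 RPKM, above BSCs (log2 fold change -2.43 ± 0.18, adjusted p = 9.5e-10 for BSC minus EpCAM-negative). The EpCAM-negative population held the lowest level of Cldn3, Cldn4, Cldn7, Cldn8 and Cldn23 and the highest mean level of Cldn1 and Cldn5. Alveolar cells were lower in Cldn1 than CD24lo cells (log2 fold change -0.83 ± 0.30, adjusted p = 0.030), which did not pass with limma voom, in a fit of only these 6 libraries, or without CD24lo replicate 3 (-0.58) or alveolar replicate 1 (-0.73) or 2 (-0.82).

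Cldn10 (chr14:118787871-118874525 on the plus strand, GRCm38) makes ion-selective channels, with a form for cations and a form for anions that differ in their first exon. RefSeq lists windows at 2 start sites, and counts per gene do not separate the forms. Its highest levels were in the population enriched for club cells. CD24lo libraries held 102, 150.3 and 146 RPKM, non-basal libraries 38.0, 35.3 and 37.6 RPKM and CD24hi libraries 21.9, 17.5 and 22.4 RPKM. BSCs had 5.49, 3.88 and 4.24 RPKM, EpCAM-negative cells 5.11, 4.51 and 3.74 RPKM and alveolar cells 1.40, 1.40 and 0.977 RPKM. All CD24lo libraries lay above every other library, and BSC and EpCAM-negative libraries overlapped.

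Cldn10 was lower in CD24hi than in CD24lo cells (log2 fold change -2.69 ± 0.16, adjusted p = 6.7e-10), lower in BSCs than in non-basal cells (log2 fold change -3.03 ± 0.16, adjusted p = 1.7e-10) and lower in alveolar than in CD24lo cells (log2 fold change -6.71 ± 0.22, adjusted p = 2.4e-13). Non-basal cells were lower than CD24lo cells (log2 fold change -1.84 ± 0.15, adjusted p = 2.5e-08). The summed level of the 7 club markers was 502135 to 706136 RPKM in CD24lo cells, where Scgb1a1 made up most of it (598605 RPKM as a mean), and 10393 to 12763 RPKM in BSCs, where Cyp2f2 did (7105 RPKM). It was 74995 to 98489.6 RPKM in CD24hi, 106012 to 112388 RPKM in non-basal, 4522 to 5557 RPKM in alveolar and 2029 to 3209 RPKM in EpCAM-negative cells. All 7 markers had a higher mean in CD24lo than in CD24hi cells and in non-basal cells than in BSCs, as Cldn10 did. Between non-basal and CD24lo cells the list was split, with a higher mean in non-basal cells for 4 of the 7, Scgb3a2 (12872 against 10702 RPKM), Cyp2f2, Scgb3a1 and Aldh1a1, unlike Cldn10. EpCAM-negative cells had a lower club sum than alveolar cells but a higher Cldn10 level (log2 fold change 1.81 ± 0.24, adjusted p = 4.3e-06). The part of the club markers in the Cldn10 result was not tested.

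Cldn18 (chr9:99690796-99717267 on the minus strand, GRCm38) encodes the claudin whose lung form is known from alveolar epithelium, with another form in stomach. The forms start at different first exons, and RefSeq gives a window for each start (GRCm38.p6, minus strand, printed 5′ to 3′). They are shown because no other listed claudin was so unequal between organs. Capitals mark matches on either strand to the core NKX2-1 motif CAAGTG.
Cldn18 upstream start, chr9:99717218-99717517: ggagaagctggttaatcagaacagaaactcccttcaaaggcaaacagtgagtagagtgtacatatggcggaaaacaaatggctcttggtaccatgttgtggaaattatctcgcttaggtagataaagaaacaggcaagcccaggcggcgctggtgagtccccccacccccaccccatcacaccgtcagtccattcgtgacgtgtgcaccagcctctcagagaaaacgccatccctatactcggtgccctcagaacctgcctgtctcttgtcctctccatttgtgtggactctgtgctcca
Cldn18 downstream start, chr9:99710014-99710313: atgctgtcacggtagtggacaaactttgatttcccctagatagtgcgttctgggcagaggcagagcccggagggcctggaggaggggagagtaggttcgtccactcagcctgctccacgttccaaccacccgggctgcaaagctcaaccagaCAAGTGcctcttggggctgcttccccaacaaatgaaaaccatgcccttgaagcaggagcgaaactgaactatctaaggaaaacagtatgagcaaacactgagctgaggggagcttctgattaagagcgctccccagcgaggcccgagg
The downstream window holds 1 match, which begins 98 bases before the start, and the letters do not occur in the upstream window. Of all windows, 13.6% hold this motif, and 5 of the 13 windows found for 8 of the 10 claudins do. None was found for Cldn8 or Cldn23. Of 3 other motifs searched, the grainyhead-like motif AACCNGTT is in 2.09% of all windows. The forkhead motif TGTTTAC is in 3.65%. The TATA box, searched by its letters TATAAA, is in 13.6%. The letters of these motifs, of the AP-1 motif and of the Sp1 box are in neither Cldn18 window. Which of the starts gives the lung form was not determined here, and counts per gene do not separate the forms. A match describes the letters and is not evidence of binding.

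Cldn18 was at 313, 294 and 324 RPKM in alveolar cells, 115, 113 and 109.7 RPKM in CD24hi cells, 45.3, 25.3 and 22.4 RPKM in CD24lo cells and 13.1, 9.68 and 13.2 RPKM in EpCAM-negative cells. No population overlapped the next, and each step passed the test. CD24hi exceeded CD24lo cells (log2 fold change 1.86 ± 0.21, adjusted p = 1.6e-06) and alveolar exceeded CD24hi cells (log2 fold change 1.46 ± 0.21, adjusted p = 1.3e-05). In trachea, BSC libraries held 0 reads, which allows up to 0.00900 RPKM over the 3 libraries taking 3 counts as the limit, and non-basal libraries held 1 read. At that limit the alveolar mean was at least 34446-fold above BSCs, a bound that covers counting error in BSCs only. Against non-basal cells the ratio was 85687, with an exact 95% Poisson interval of 15379 to 3384462 that covers counting error only.

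The 8 AT2 and 10 alveolar type 1 (AT1) markers were set beside Cldn18 in the same libraries, each as a percentage of its alveolar mean. In CD24hi cells Cldn18 was 35.4% to 37.1%, and all 8 AT2 markers lay below it, from Lamp3 (0.570% to 0.714%) and Sftpc, encoding surfactant protein C (0.527% to 1.17%), to the lipid transporter gene Abca3 (9.67% to 12.3%). Of the 10 AT1 markers, Ager (5.17% to 12.8%) and Aqp5 (9.40% to 14.97%) lay below Cldn18, 3 overlapped it and 5 lay above it, among them Hopx (362% to 443%) and Clic5 (127% to 139.7%). In CD24lo cells Cldn18 was 7.22% to 14.6%, with 5 AT2 markers below it and 3 overlapping, and all 10 AT1 markers above it. In EpCAM-negative cells Cldn18 was 3.12% to 4.26%, with 7 AT2 markers below it and 1 overlapping, and 9 AT1 markers above it and 1 overlapping.

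The order of the airway populations was opposite for Cldn18, higher in CD24hi, and for the summed AT2 markers, which were 0.788% to 1.46% of the alveolar mean in CD24hi and 3.31% to 4.74% in CD24lo cells. The AT1 markers summed to 463 to 663 RPKM in CD24hi, 680.3 to 899.5 RPKM in CD24lo and 1860.4 to 1886 RPKM in alveolar cells. Taken singly, these markers were split between the airway populations. Hopx (362% to 443% against 216% to 280% of the alveolar mean) and Emp2 (73.1% to 83.8% against 33.6% to 58.6%) were higher in CD24hi than in CD24lo libraries. Ager, Aqp5, Clic5, Cav1 and Vegfa were lower, and Akap5, Rtkn2 and Spock2 overlapped. Several of the AT1 markers are made outside AT1 cells, as in BSCs, where Cav1 was at 248 RPKM against 36.4 RPKM in alveolar cells. The part of alveolar RNA in the Cldn18 level of the other lung populations was not tested.

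**Figure D2:**
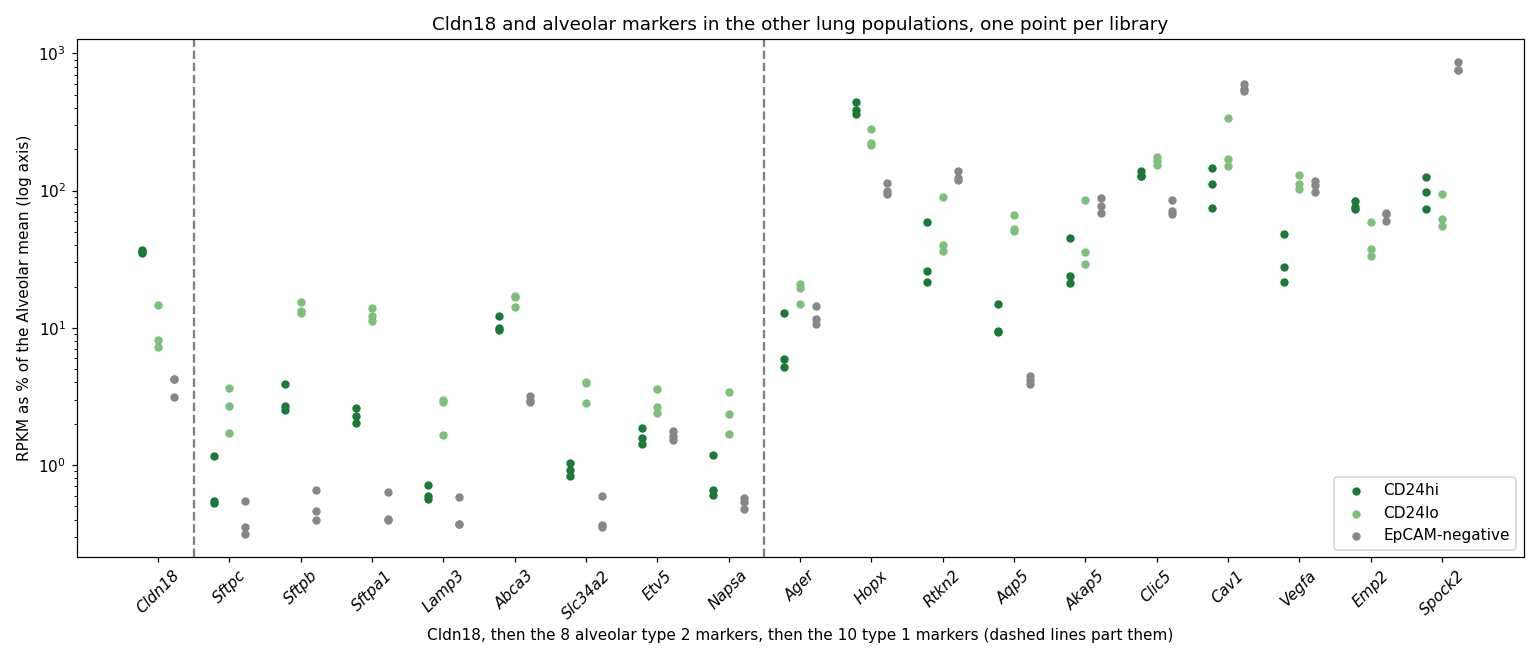
Cldn18, the 8 AT2 markers and the 10 AT1 markers in the CD24hi, CD24lo and EpCAM-negative libraries, as a percentage of the gene's alveolar mean RPKM (vertical axis, logarithmic), with a point for each library and dashed lines between the lists. In CD24hi cells Cldn18 (35.4% to 37.1%) lies above all 8 AT2 markers, and 5 of the 10 AT1 markers lie above Cldn18.

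Cldn5 (chr16:18776847-18778262 on the plus strand, GRCm38, 1 exon) encodes the main claudin of blood vessel endothelium. It was at 89.0, 63.3 and 43.2 RPKM in EpCAM-negative, 92.3, 29.1 and 30.0 RPKM in CD24lo, 83.5, 30.7 and 17.4 RPKM in CD24hi and 17.4, 30.2 and 19.7 RPKM in alveolar libraries. These lung populations overlapped, apart from EpCAM-negative and alveolar cells, and the first replicate of CD24hi, CD24lo and EpCAM-negative cells, all from mouse 4, was the highest of its population. BSC libraries held 0 reads (up to 0.0198 RPKM over the 3 libraries with the same limit of 3 counts) and non-basal libraries 1, 0 and 7 reads. At that limit the alveolar mean was at least 1129-fold above BSCs, a bound that again covers counting error in BSCs only.

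The summed RPKM of 10 endothelial markers (Pecam1, Cdh5, Tek, Tie1, Kdr, Emcn, Vwf, Ramp2, Egfl7 and Robo4) is given beside Cldn5 for each lung library. It was 427, 344 and 268 in EpCAM-negative, 461, 191 and 171 in CD24lo, 350.4, 151 and 91.5 in CD24hi and 80.9, 153 and 108 in alveolar libraries, against 0.928 to 1.11 in BSCs and 5.75 to 7.31 in non-basal cells. In every lung library all 10 markers had reads, and Cldn5 amounted to 15.3% to 23.8% of their sum. Over the 12 lung libraries, which share mice 4 to 6, Pearson's r between Cldn5 and the sum was 0.978 and Spearman's rho 0.930, given as a description. Cdh5 and Emcn were at 0 in all BSC libraries. The methods describe an alveolar gate without CD31, the product of Pecam1, which was at 16.8 ± 5.77 RPKM (SD, n = 3) in alveolar libraries. The part of endothelial RNA in the Cldn5 levels was not tested.

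**Figure D3:**
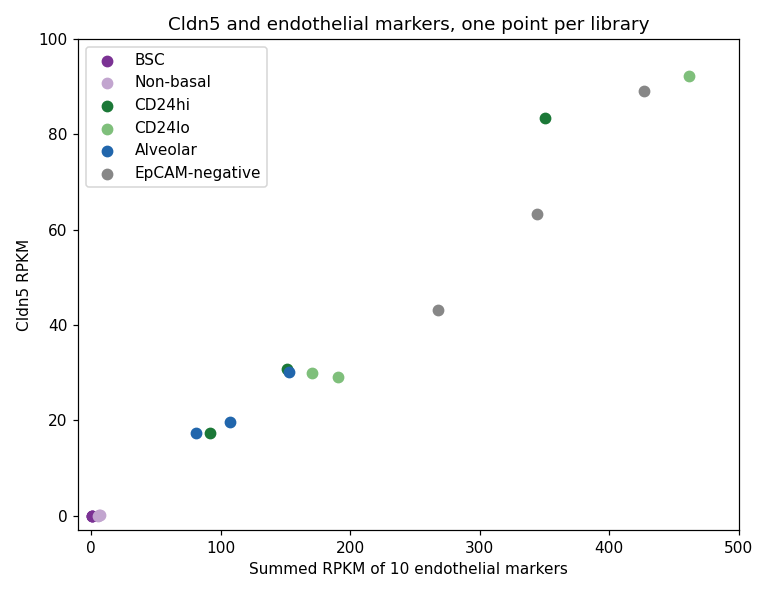
Cldn5 RPKM (vertical axis) against the summed RPKM of 10 endothelial markers (horizontal axis), with a point for each of the 18 libraries. The tracheal points sit at the origin, with sums of at most 7.31, and the lung points rise together up to a sum of 461 in a CD24lo library.

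EpCAM-negative cells were higher than alveolar cells in Cldn5 (log2 fold change 1.54 ± 0.53, adjusted p = 0.019), but the call was lost without EpCAM-negative replicate 1 (log2 fold change 1.25) or alveolar replicate 1 (1.38) or 3 (1.46). The alveolar minus CD24lo difference (log2 fold change -1.18 ± 0.53, adjusted p = 0.080) and the alveolar minus CD24hi difference (log2 fold change -0.97 ± 0.53, adjusted p = 0.13) did not pass. The first passed in a fit of only these 6 libraries and without CD24lo replicate 2 (-1.47) and the second without CD24hi replicate 3 (-1.35). Without both airway libraries of mouse 4, they were -0.40 and -0.10 and did not pass.

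Cldn12 (chr5:5505015-5514976 on the minus strand, GRCm38), a widely made claudin, had a ratio of highest to lowest population mean of 1.51, against at least 105 for the 7 other claudins with reads in every population. Its lowest library, at 5.02 RPKM, was a CD24hi library and its highest, at 11.3 RPKM, an alveolar one. The population means ran from 7.35 ± 2.13 RPKM (SD, n = 3) in CD24hi cells through 7.41 ± 0.790 RPKM in BSCs, 7.69 ± 0.355 RPKM in non-basal, 8.26 ± 0.399 RPKM in EpCAM-negative and 9.67 ± 0.394 RPKM in CD24lo cells to 11.1 ± 0.353 RPKM in alveolar cells. None of the 5 neighbouring pairs in this order passed the test. Alveolar cells were higher than CD24hi cells (log2 fold change 0.60 ± 0.15, adjusted p = 0.0020) and BSCs lower than alveolar cells (log2 fold change -0.58 ± 0.15, adjusted p = 0.0019), calls that were both lost when libraries were scaled by size without TMM factors (0.28 and -0.18). The first was also lost in a fit of only its 6 libraries. CD24hi cells were lower than CD24lo cells (log2 fold change -0.40 ± 0.15, adjusted p = 0.033), a call lost in 7 alternatives, among them the fit without CD24hi replicate 1 (-0.18), without CD24lo replicate 2 (-0.37) or without CD24lo replicate 3 (-0.39).

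Summed over the 10 claudins, the level was 1090.0 ± 188 RPKM (SD, n = 3) in CD24hi cells, 779 ± 59.4 in CD24lo, 768 ± 13.9 in alveolar and 631 ± 25.1 in non-basal cells. BSCs had 363 ± 29.2 and EpCAM-negative cells 109 ± 22.8 RPKM. The make-up of that sum is given next, as each gene's mean share in percent with its SD over 3 libraries. In BSCs Cldn4 was first (36.8% ± 4.59), followed by Cldn3 (24.7% ± 2.39), Cldn7 (20.7% ± 0.800) and Cldn8 (9.54% ± 1.21). Non-basal cells had Cldn3 first (41.3% ± 1.89), then Cldn4 (20.5% ± 2.21) and Cldn7 (18.7% ± 0.410). In alveolar cells Cldn3 (43.5% ± 1.12) and Cldn18 (40.4% ± 1.39) made up most of the sum and Cldn4 only 1.07% ± 0.301.

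Taking the 2 leading claudins of each library, their mean share was lowest in CD24lo cells, 54.1%, and in the 3 CD24lo libraries the second after Cldn3 was Cldn7 in replicate 1, Cldn4 in replicate 2 and Cldn10 in replicate 3. Over these libraries the mean shares were Cldn3 at 35.1% ± 1.47, Cldn10 at 17.1% ± 3.66, Cldn7 at 17.0% ± 1.40 and Cldn4 at 16.0% ± 4.19. CD24hi cells had Cldn3 at 49.7% ± 2.86, Cldn7 at 19.1% ± 1.24, Cldn4 at 12.6% ± 2.79 and Cldn18 at 10.5% ± 1.47. In EpCAM-negative cells Cldn5 made up 58.3% ± 8.84, Cldn1 11.4% ± 2.00 and Cldn18 11.3% ± 3.26. The share of Cldn7 lay in the airway populations between 17.0% ± 1.40 and 20.7% ± 0.800.

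**Figure D4:**
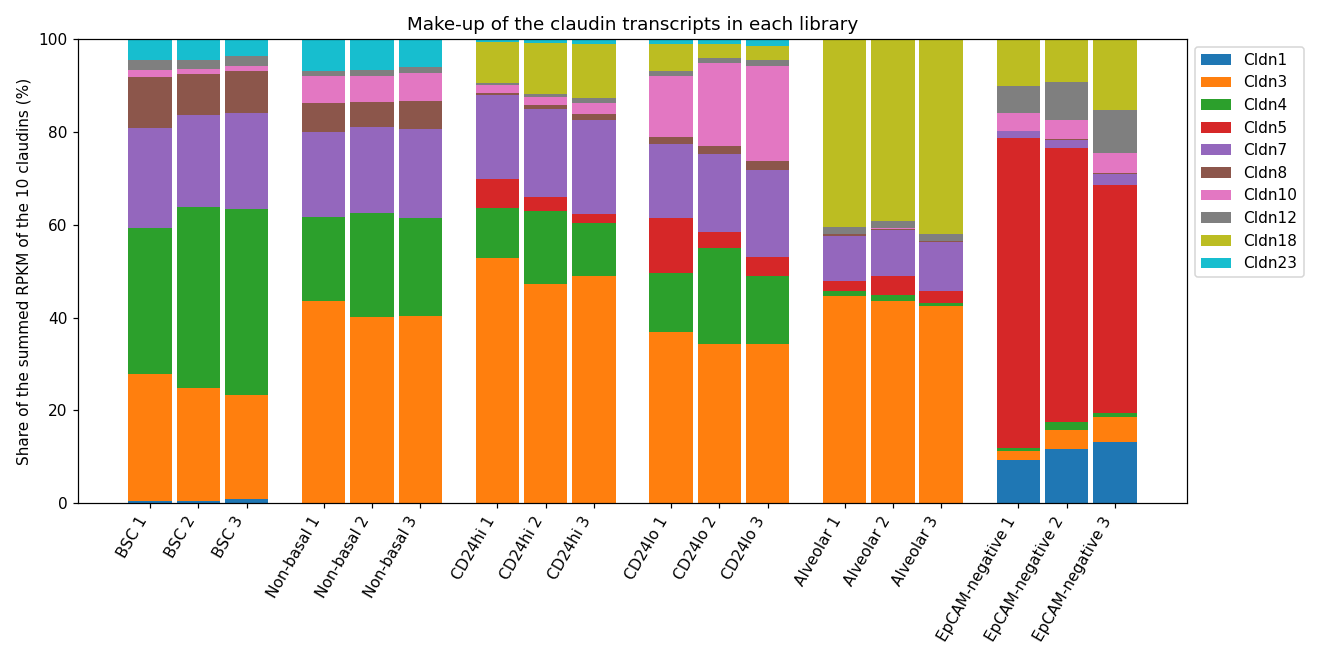
Share of each claudin in the summed RPKM of the 10 claudins (vertical axis, percent, from 0 to 100), with a stacked bar for each of the 18 libraries grouped by population. Cldn3 fills a mean of 43.5% and Cldn18 40.4% of the alveolar bars, Cldn4 36.8% of the BSC bars and Cldn5 58.3% of the EpCAM-negative bars.

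Counted over the list, each comparison is read against the share of all genes it called at an adjusted p under 0.05. In BSCs relative to non-basal cells, 1 of the 10 claudins was higher and 4 were lower, leaving 5 not called. In that comparison 48.2% of all genes tested were called, 21.9% higher and 26.2% lower, so the 5 called claudins of 10 were near the background. The median log2 fold change of the 10 was -1.02, or -0.38 over the 8 claudins left without Cldn5 and Cldn18, which had 8 reads or fewer in both populations, and that of all genes -0.017.

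Between the airway populations, CD24hi relative to CD24lo, 3 of the 10 claudins were higher and 4 were lower, leaving 3 not called, while 55% of all genes tested were called, 27.8% higher and 27.2% lower. Cldn3, Cldn7 and Cldn18 were higher and Cldn1, Cldn8, Cldn10 and Cldn12 lower. Scaling by size without TMM factors made this split 4 higher and 2 lower. In alveolar relative to CD24lo cells, 1 of the 10 claudins was higher and 6 were lower, leaving 3 not called, while 48.4% of all genes tested were called, 24.2% higher and 24.2% lower. The higher claudin was Cldn18. In alveolar relative to CD24hi cells, 3 of the 10 claudins were higher and 6 were lower, leaving 1 not called, while 61.9% of all genes tested were called, 31.4% higher and 30.5% lower. The median log2 fold change of the 10 claudins was -0.071, -1.003 and -1.20 in these 3 comparisons, which share libraries, and that of all genes -0.061, -0.026 and 0.0060.

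In EpCAM-negative relative to alveolar cells all 10 claudins were called, 3 higher (Cldn1, Cldn5 and Cldn10) and 7 lower, while 61.9% of all genes tested were called, 32.7% higher and 29.2% lower. Cldn12 (-0.43) was no longer called with RLE factors (-0.37), with scaling by size without TMM factors (-0.24) or without EpCAM-negative replicate 1 (-0.40), and the first 2 of these made the split 3 higher and 6 lower. The largest falls were in Cldn3 (-6.42), Cldn7 (-5.30) and Cldn18 (-4.69). In BSCs relative to alveolar cells, 5 of the 10 claudins were higher and 4 were lower, leaving 1 not called, while 66.1% of all genes tested were called, 30.5% higher and 35.6% lower. Cldn1, Cldn4, Cldn8, Cldn10 and Cldn23 were the higher ones. Cldn3, Cldn5, Cldn12 and Cldn18 were the lower ones, Cldn5 and Cldn18 with 0 reads in BSCs. With scaling by size without TMM factors the split became 6 higher and 3 lower. In non-basal relative to CD24lo cells, 2 of the 10 claudins were higher and 3 were lower, leaving 5 not called, while 53.1% of all genes tested were called, 25.3% higher and 27.8% lower. Cldn8 and Cldn23 were higher, and Cldn5, Cldn10 and Cldn18 lower.

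**Figure D5:**
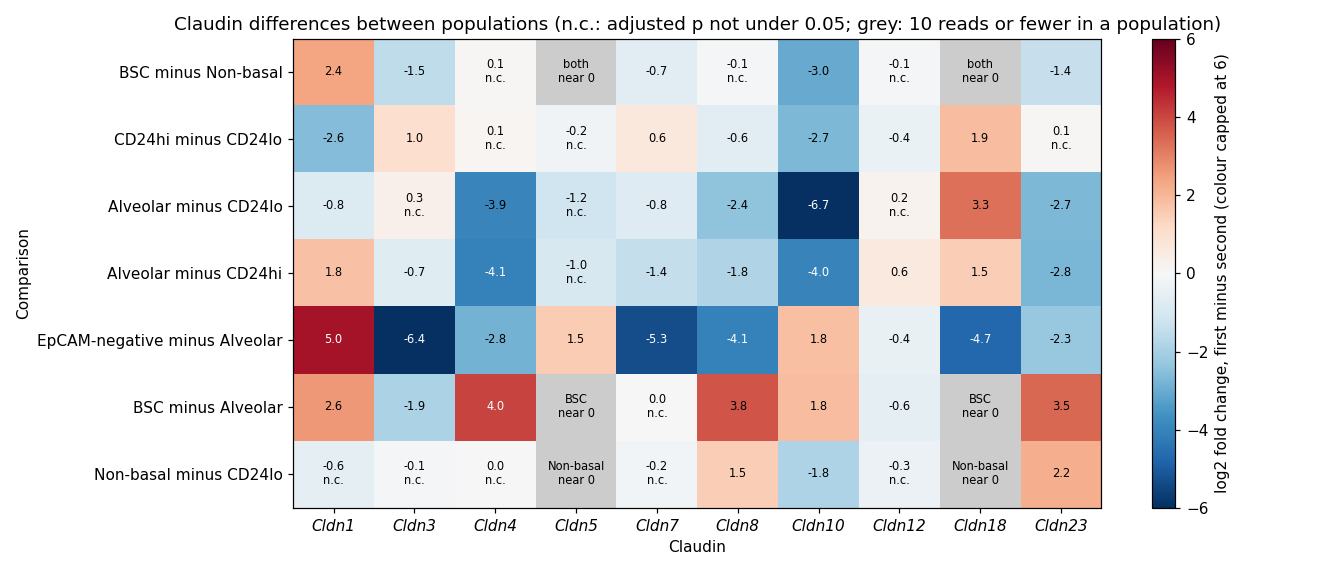
Log2 fold changes of the 10 claudins (columns) in 7 comparisons (rows), coloured from blue (lower in the first population) to red (higher), with n.c. where the adjusted p was not under 0.05 and grey where a population had 10 reads or fewer. Cldn1 reaches 5.01 in EpCAM-negative minus alveolar cells and Cldn10 -6.71 in alveolar minus CD24lo cells.

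The order of the 6 populations for each claudin used the remaining 8 pairs too. In these, the share of all genes called was 72% for BSC minus CD24hi, 63.8% for BSC minus CD24lo, 70.3% for BSC minus EpCAM-negative, 68.4% for non-basal minus CD24hi, 71.6% for non-basal minus EpCAM-negative, 64% for non-basal minus alveolar, 72.2% for CD24hi minus EpCAM-negative and 63.4% for CD24lo minus EpCAM-negative. Among the 5 neighbouring pairs of each order, 4 differed for Cldn8, Cldn10, Cldn18 and Cldn23, 3 for Cldn1, Cldn3 and Cldn7, 2 for Cldn4, 1 for Cldn5 and 0 for Cldn12. The single step of Cldn5 that passed was from alveolar to non-basal cells, between lung and trachea.

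Genes for 26 other tight junction proteins were counted in the same way, and those named are the 3 called with the largest rises and falls among genes of at least 10 CPM on average, with their log2 fold changes. They include occludin (Ocln) and tricellulin (Marveld2), which share strands with claudins, the scaffold proteins Tjp1 and Tjp3, the cingulins (Cgn, Cgnl1), the JAM family and polarity proteins, and all 26 were tested. In EpCAM-negative relative to alveolar cells 4 were higher and 20 lower (92.3% called, against 61.9% of all genes), and the median over the 26 log2 fold changes was -1.96, that of all genes being 0.012. Tjp3 (-5.97), Igsf5 (-5.95) and Crb3 (-5.79) fell most, and Mpdz (4.06) and Jam2 (3.39) rose. Tjp1, the scaffold that claudin tails bind, was at 23.0 to 27.7 RPKM as means over the 6 populations, with EpCAM-negative cells at 26.6 ± 0.675 RPKM.

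In CD24hi relative to CD24lo cells, 9 were higher and 6 lower (57.7% called, against 55% of all genes). Ocln was higher (log2 fold change 1.15 ± 0.13, adjusted p = 5.4e-07), as were Magi1 (1.61) and Marveld2 (0.72), while Cgnl1 (-1.23), Jam2 (-1.18) and Cxadr (-0.63) were lower. In BSCs relative to non-basal cells, 5 were higher and 14 lower (73.1% called, against 48.2% of all genes), with Mpdz (2.61), Pard3 (1.46) and Prkci (0.86) higher and Jam2 (-2.38), Cgnl1 (-1.96) and Igsf5 (-1.41) lower. In BSCs relative to alveolar cells, 10 were higher and 11 lower (80.8% called, against 66.1% of all genes), with Mpdz (2.33), Ildr1 (1.20) and Tjp3 (0.74) the largest rises and Esam (-8.78), Cgnl1 (-4.51) and Jam2 (-3.73) the largest falls.

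In alveolar relative to CD24lo cells, 10 were higher and 7 lower (65.4% called, against 48.4% of all genes), led by Esam (1.88), Igsf5 (1.52) and Pard3 (1.14) upwards and Jam2 (-1.72), Cgn (-1.48) and Mpdz (-1.03) downwards. Relative to CD24hi cells, 9 were higher and 9 lower (69.2% called, against 61.9% of all genes), with Esam (2.32), Igsf5 (1.58) and Cgnl1 (1.36) up and Ocln (-1.86), Mpdz (-1.48) and Cgn (-1.05) down. In non-basal relative to CD24lo cells, 9 were higher and 7 lower (61.5% called, against 53.1% of all genes). Ildr1 (1.89), Tjp3 (1.01) and Marveld3 (0.66) rose as Cldn8 and Cldn23 did, and Esam (-7.14), Jam2 (-3.08) and Cgnl1 (-2.42) were lower. Mean Esam was 96.9 RPKM in alveolar, 35.2 in EpCAM-negative, 26.2 in CD24lo and 19.3 in CD24hi cells. The endothelial sum averaged 114, 346, 274 and 198 RPKM in the same populations, and Jam2 1.83, 19.1, 6.02 and 2.66 RPKM. Jam2 thus ranked these populations as the endothelial sum did, and Esam did not. The part of endothelial RNA in the lung levels of these tight junction genes was not tested.

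Of 19 other claudin genes in the count files, 7 passed the filter, namely Cldn2, Cldn6, Cldn11, Cldn15, Cldn20, Cldn22 and Cldn34c1. All but Cldn22 had population means of at most 2.44 RPKM. Cldn22 reached 28.0 ± 1.57 RPKM (SD, n = 3) in non-basal and 11.4 ± 2.58 RPKM in CD24lo cells, and stood at 1.69 ± 0.359 RPKM in BSCs and 0.402 ± 0.226 RPKM in alveolar cells. It was lower in BSCs than in non-basal cells (log2 fold change -4.04 ± 0.24, adjusted p = 4.6e-10) and lower in CD24hi than in CD24lo cells (log2 fold change -3.92 ± 0.31, adjusted p = 1.1e-08), the same directions as Cldn10. Its single exon, at chr8:47824482-47825475 on the plus strand, GRCm38, lies wholly within exons of Wwc2 on the opposite strand in GENCODE. Use of strand in the counting is not given in the sources used here, so reads of these genes cannot be told apart. The others with calls in these same comparisons were Cldn2 (-1.64) and Cldn6 (-2.31), lower in BSCs than in non-basal cells, and Cldn6 (-2.79) and Cldn15 (-1.38), lower in CD24hi than in CD24lo cells. The Cldn6 values rest on few reads, in total 6 in BSC, 27 in non-basal, 8 in CD24hi and 43 in CD24lo libraries.

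The genes with the most similar profile to each claudin, at most 3, were those with the highest Pearson correlation of log2 CPM over the 18 libraries, which fall in 6 clusters of 3 and share depth and organ. They were Tbc1d30 (0.990), Myo5c (0.989), Bspry (0.988) for Cldn3 and Tmem125 (0.994), Scnn1a (0.993), Plekhh1 (0.993) for Cldn7, an epithelial sodium channel subunit (Scnn1a) among them. For Cldn4 they were Gpx2 (0.987), Sox2 (0.980), Gsr (0.975), including the airway transcription factor Sox2, and for Cldn8 Gsta4 (0.989), Eya2 (0.988). Cldn23 was most like Krt19 (0.985), Runx1 (0.981), Dock8 (0.979). For Cldn10 they were Ikbkg (0.971), Stxbp6 (0.952), Nrarp (0.937), for Cldn18 Ptprm (0.983), Fam189a2 (0.979), Npr1 (0.977), and for Cldn12 Fam126b (0.945), Rap1a (0.939), Eif4a2 (0.917). Cldn5 was most like Pecam1 (0.998), Cdh5 (0.998), Sox18 (0.998), of which Pecam1 and Cdh5 are endothelial adhesion proteins and Sox18 an endothelial transcription factor. For Cldn1 they were Ctsl (0.978), Flrt2 (0.977), Sash1 (0.974). Among the claudins themselves, Cldn3 and Cldn7 had r = 0.971, Cldn8 and Cldn23 0.965, Cldn4 and Cldn23 0.946, and Cldn1 and Cldn3 -0.951.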

How the data were processed

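The authors aligned single-end reads of 100 bases to mm10 with Rsubread, assigned them to Entrez genes with featureCounts and its RefSeq annotation, and deposited raw counts for 27179 genes with a gene length. The submitters' processing notes also name bcl2fastq 1.8.4. The strand setting is not given in the sources used here. Identifiers were matched to symbols in NCBI's GRCm38.p6 gene table (25275 matched). Following the study's methods, a gene was kept if its CPM exceeded 0.2 in 3 or more libraries, and TMM factors were used. Where the authors used limma voom, the counts were fitted here with edgeR 4.0.16 (R 4.3.3; glmQLFit, glmQLFTest), the 18 libraries together. The Benjamini-Hochberg adjustment ran over the 17989 genes kept, and calls were made under 0.05. RPKM values used the deposited length. The standard error is the absolute log2 fold change divided by the square root of F. The workflow was tested on simulated counts with changes set in BSCs, for BSC minus non-basal only and without an effect of mouse. Alternatives included limma 3.58.1 (voom) and DESeq2 1.42.0. The claudins, the other gene lists and the markers were chosen with earlier results of these data known.

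The rule for names covered all 10 claudins, other claudins past the filter, Epcam, markers, the 3 largest rises and falls among called partners averaging 10 CPM or more, and the 3 most similar genes (log2 CPM with a prior count of 2, a mean of at least 10 CPM, or 1 CPM for Cldn1). Likeness has no test. A few genes that these rules would name are not reported here. Libraries with the same mouse number come from the same mouse by the labels. Deviations from the population means correlated at 0.117 to 0.336 between the tracheal pairs and -0.059 to 0.28 between the lung pairs. No replicate pair agreed within counting noise (chi-square per degree of freedom of at least 3.50). Promoter windows came from RefSeq, and exons from GENCODE vM21. A table of the whole series was not used.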

Additional observations from a re-analysis of the deposited data

How the results depend on the processing

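The 7 comparisons hold 70 tests of a claudin, of which 52 were called, and 45 of these kept their direction and their side of the threshold in every alternative run: DESeq2, limma voom, RLE factors, library sizes without factors, no filter or one at 1 CPM, a fit of the 6 libraries compared, a replicate block, tracheal libraries thinned to the median lung depth, a correction for gene length, leaving out each library, and leaving out both airway libraries of mouse 4, the last chosen after seeing the data. Of the 18 tests not called, 8 passed in at least 1 alternative: Cldn5 in BSC minus non-basal, Cldn23 in CD24hi minus CD24lo, Cldn3 and Cldn5 in alveolar minus CD24lo, Cldn5 in alveolar minus CD24hi, and Cldn1, Cldn7 and Cldn12 in non-basal minus CD24lo. The number of claudins called ranged over all of these from 5 to 6 for BSC minus non-basal, 5 to 7 for CD24hi minus CD24lo and 8 to 10 for EpCAM-negative minus alveolar. It ranged from 6 to 8 for alveolar minus CD24lo, 8 to 10 for alveolar minus CD24hi and 5 to 7 for non-basal minus CD24lo. For BSC minus alveolar it was always 9. The replicate block, with the mouse as the pairing, left the 5 calls of BSC minus non-basal and every other within-organ call of a claudin as they were, and gave Cldn3 0.99 for CD24hi minus CD24lo. No paired analysis was possible between trachea and lung because the mice differ.

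Values that changed sign under an alternative lay between -0.12 and 0.57, and none of these results was called in the fit reported. The causes were not tested. For Cldn7 in BSC minus alveolar they were 0.0022 (RLE), 0.38 (library sizes), 0.0026 (DESeq2), 0.061 (6 libraries) and 0.17 (gene length). In BSC minus non-basal, library sizes gave 0.24 for Cldn8 and 0.29 for Cldn12, and in CD24hi minus CD24lo 0.037 for Cldn5. In non-basal minus CD24lo, Cldn4 was -0.018 after thinning and Cldn3 0.11 with the length correction. Without mouse 4 in the airway populations, Cldn4 was -0.052 in CD24hi minus CD24lo and -0.12 in non-basal minus CD24lo. On leaving out single libraries, the ranges that crossed 0 were -0.060 to 0.010 for Cldn7 in BSC minus alveolar, -0.046 to 0.20 for Cldn4 and -0.14 to 0.015 for Cldn12 in BSC minus non-basal, -0.044 to 0.41 for Cldn4, -1.08 to 0.57 for Cldn5 and -0.0081 to 0.18 for Cldn23 in CD24hi minus CD24lo, and -0.12 to 0.32 for Cldn4 in non-basal minus CD24lo. With 3 libraries a population, differences of the size of those in Cldn12 lie near the threshold, and 0 reads of Cldn18 or Cldn5 in BSCs bound a level and do not show absence.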
